A study of Mus musculus with 4 samples.

Results

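Triglyceride is built in liver by 2 routes, and the genes of interest here encode the enzymes that tell them apart. The list held 9 mouse genes, chosen as enzymes of these routes with earlier results of these data known. Gpam, Agpat1, Agpat2, Agpat3, Lpin1 and Lpin2 belong to the glycerol phosphate route and Mogat1 to the monoacylglycerol route, while Dgat1 and Dgat2 close both. Of these, 8 were present among the 16504 genes with a probe annotated to a single symbol, and Gpam was not analysed here. Liver RNA of polygenic obese mice was compared between animals whose diet held CLA (conjugated linoleic acid, rearranged isomers of a common dietary fatty acid) and control animals given LA, plain linoleic acid, at day 14 of the trial, all groups being on the same obese background. Strain, sex, age and dose are not stated in the labels. RNA was pooled from 5 or 4 samples, and each of 4 arrays with 2 colours set a CLA pool against an LA pool. Arrays 1 and 2 carried CLA in the Cy5 channel, and the dyes were exchanged on arrays 3 and 4. Which arrays share a pool is not stated, so every p below measures only the spread between these 4 arrays, which may in part be technical.

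In the glycerol phosphate route, glycerol-3-phosphate acyltransferases such as Gpam attach the first acyl chain, the acylglycerol phosphate acyltransferases (AGPATs) attach the next one to give phosphatidate, and lipins remove the phosphate to give diacylglycerol. Monoacylglycerol acyltransferases (MOGATs) reach diacylglycerol directly from monoacylglycerol, a route best known from the absorbing intestine, and in mice liver Mogat1 is known to be raised in fatty liver. Diacylglycerol acyltransferases (DGATs) then add the last chain to make triglyceride, which the hepatocyte stores in droplets or exports in lipoproteins.

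The deposited table gives 1 log ratio per array and does not say which channel is on top. Both possibilities are therefore given throughout. The as-given reading takes every value as CLA over LA already. The sign-flipped reading takes every value as the Cy5 channel over the Cy3 channel and turns the sign of arrays 3 and 4 before averaging. The arrays are the same in both, and the coefficient that is the CLA effect in one reading is the dye term in the other. If every ratio were instead LA over CLA, all CLA effects of the as-given reading would change sign. If every ratio were Cy3 over Cy5, all CLA effects of the sign-flipped reading would. Values are on the log2 scale, with the deposited values taken as log10. If they were log2 already, every size below would be 3.32 times too large, while signs, percentiles and p-values would stay.

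Set side by side, the 8 genes did not move as one block. Mogat1 was above 0 on all 4 arrays and Agpat1 below 0 on all 4. Agpat2, Agpat3, Lpin2, Dgat1 and Dgat2 were below 0 on arrays 1 and 2 and above 0 on arrays 3 and 4, so that their sign followed the dyes. Lpin1 had mixed signs. The sign pattern of those 5 genes was common on these arrays: 21.6% of all genes were below 0 on arrays 1 and 2 and above 0 on arrays 3 and 4, and 42.9% followed the dyes in either direction. A single sign on all 4 arrays, held by 2 of the 8, was held by 9.64% of all genes. In the as-given reading no gene passed the limma test (adjusted p under 0.05), 0 of 8 here against 0.0% of all genes, with 2 of 8 and 2235 of 16504 at an unadjusted p under 0.05. In the sign-flipped reading 4 of 8 passed, Agpat2, Agpat3, Dgat1 and Dgat2, all lower with CLA, against 17.1% of all genes called and 9.72% called lower. The median over the 8 genes was 0.23 as given and -0.48 sign-flipped, against 0.001 and 0.019 over all genes.

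**Figure D1:**
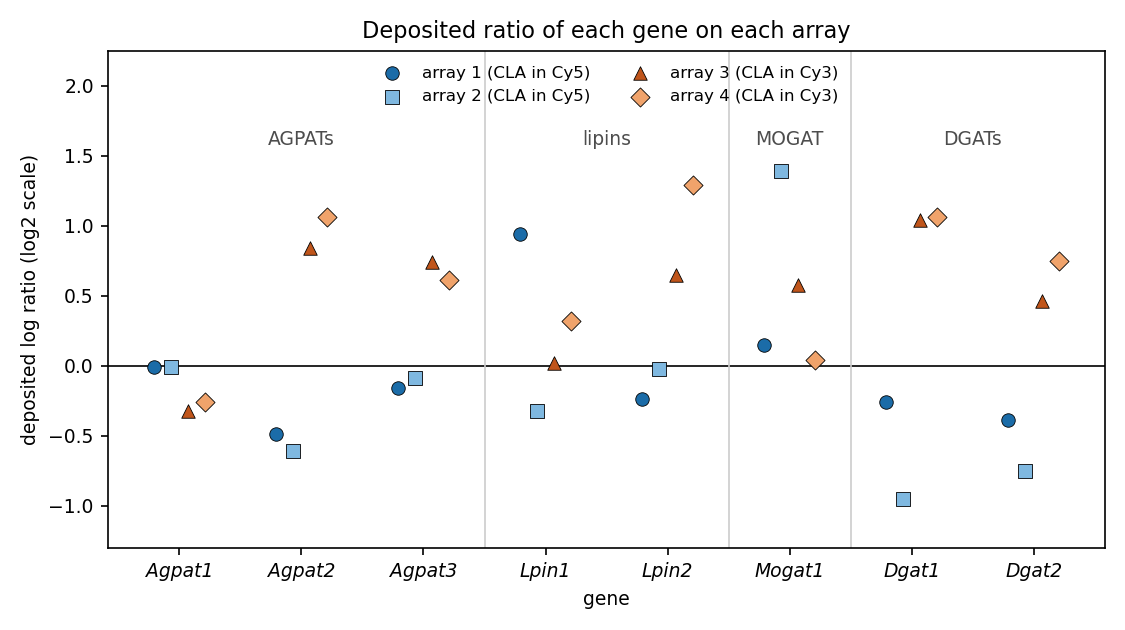
Deposited log ratio (y axis, log2 scale) of the 8 genes (x axis) on each of the 4 arrays, 1 point per array, coloured and shaped by array. Agpat2, Agpat3, Lpin2, Dgat1 and Dgat2 lie below 0 on arrays 1 and 2 and above 0 on arrays 3 and 4, Mogat1 lies above 0 on all arrays with its highest value, 1.39, on array 2, and Agpat1 lies at or below 0.

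Mogat1 was above 0 on every array, while Agpat2, Agpat3 and Lpin2, the last as the mean of its probes, shared a sign pattern. The sequences just before the starts of these genes are shown. Each is the 250 bases before a start listed in RefSeq, build GRCm38.p6, written 5′ to 3′ on the strand of the gene. Capitals mark matches on either strand to any of 6 motifs: AGGTCA (the nuclear receptor hexamer), a pair of that hexamer in the same direction 1 base apart, CACGTG (the E-box of basic helix-loop-helix factors), CCAAT (bound by NF-Y), GGGCGG (the GC box of Sp1 and its relatives) and TATAAA (the TATA box). Windows were found for 6 of the 8 genes, and the first listed start of Lpin2 is shown. The window of Agpat3 lies inside the gene, which reaches to 78352497, and so precedes an inner start.
Mogat1, chr1:78510810-78511059, plus strand: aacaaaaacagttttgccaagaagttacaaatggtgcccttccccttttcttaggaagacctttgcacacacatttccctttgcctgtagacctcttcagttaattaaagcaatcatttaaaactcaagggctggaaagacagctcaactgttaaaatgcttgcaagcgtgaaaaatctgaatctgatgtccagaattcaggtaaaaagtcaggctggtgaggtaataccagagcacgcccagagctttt
Agpat2, chr2:26604418-26604667, minus strand: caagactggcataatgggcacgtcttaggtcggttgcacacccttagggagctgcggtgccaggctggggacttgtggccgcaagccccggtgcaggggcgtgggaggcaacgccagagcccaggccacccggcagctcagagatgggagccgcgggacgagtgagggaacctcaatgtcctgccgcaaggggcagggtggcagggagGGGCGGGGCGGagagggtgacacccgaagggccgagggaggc
Agpat3, chr10:78351701-78351950, minus strand: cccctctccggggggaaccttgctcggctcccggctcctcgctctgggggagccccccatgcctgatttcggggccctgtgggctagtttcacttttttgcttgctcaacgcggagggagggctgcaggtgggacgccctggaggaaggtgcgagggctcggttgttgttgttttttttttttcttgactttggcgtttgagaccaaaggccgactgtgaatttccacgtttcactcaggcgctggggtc
Lpin2, chr17:71183282-71183531, plus strand: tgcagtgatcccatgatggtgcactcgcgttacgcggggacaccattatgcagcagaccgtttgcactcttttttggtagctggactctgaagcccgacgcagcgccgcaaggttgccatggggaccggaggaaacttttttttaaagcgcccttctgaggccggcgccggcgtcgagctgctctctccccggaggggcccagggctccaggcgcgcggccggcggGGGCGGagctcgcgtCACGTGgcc

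In these windows the letters of none of the 6 motifs were found for Mogat1 or Agpat3. Agpat2 held 2 overlapping GC boxes, the first beginning 42 bases before the start, and Lpin2 held a GC box at 24 and an E-box at 9 bases before the start. Among 32851 such windows of all genes, 32.7% held a GC box, 6.02% an E-box, 14.0% the hexamer, 33.8% the CCAAT box, 12.4% the TATA box and 0.0335% the paired hexamer. The GC content was 41.2% for Mogat1, 69.2% for Agpat2, 59.6% for Agpat3 and 65.2% for Lpin2, against a median of 52.4% over all windows. Windows of Agpat1 and Lpin1, which did not share the sign pattern either, are not shown. Those of Agpat1 had 67.6% and 54.4% GC, each with a GC box, the first also with a CCAAT box and the second with the hexamer. That of Lpin1 held the hexamer, at 54.8% GC. The contrast between the windows shown thus follows in part from their choice. These are matches of letters and were not set against the ratios.

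The AGPAT genes, which acylate lysophosphatidate, differed among themselves. Agpat2, whose loss causes lipodystrophy with fatty liver in mice and lipodystrophy in humans, had log2 ratios of -0.49, -0.61, 0.84 and 1.06 on arrays 1 to 4. The 2 arrays of each dye orientation lay close together and the orientations did not overlap, with percentiles among all genes of 8.0, 8.5, 94.5 and 96.2. Sign-flipped, Agpat2 fell by 0.75 with CLA (SE 0.09, n = 4, limma adjusted p = 0.022), to 0.595 times the LA level. As given, its mean was 0.20 ± 0.09 (SE, adjusted p = 0.39).

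Agpat3, an acyltransferase known for handling polyunsaturated chains, was at -0.16, -0.09, 0.74 and 0.61 on arrays 1 to 4. Its values on arrays 1 and 2 were near 0 and those on arrays 3 and 4 clearly above it. Sign-flipped it fell by 0.40 (SE 0.08, limma adjusted p = 0.040), to 0.757 times the LA level, and as given it averaged 0.28 ± 0.08 (adjusted p = 0.35). Of the 4 calls this was the one lost most often, in 9 of 15 alternatives, with adjusted p up to 0.61. Without array 1 it was 0.10 and without array 2 it was 0.086.

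Agpat1, the widely expressed member of the family, was at -0.01, -0.01, -0.32 and -0.26 on arrays 1 to 4. It was the lowest of the 8 genes on arrays 3 and 4, where 7 of the 8 were above 0. Its mean was -0.15 ± 0.08 as given (limma adjusted p = 0.43) and 0.14 ± 0.08 sign-flipped (adjusted p = 0.24), and it passed in neither. In both readings its sign was opposite to that of Agpat2 and Agpat3, a difference between genes that was not tested.

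The lipins are phosphatidate phosphatases, and lipin 1 also acts in mouse liver as a nuclear partner of PGC-1alpha and PPAR-alpha. Lpin1 gave 0.94, -0.32, 0.02 and 0.32 on arrays 1 to 4. Array 1 alone was high, at the 99.5 percentile of all genes, while array 2 of the same orientation was at the 20.5 percentile. Its mean was 0.24 ± 0.23 as given (SE, limma adjusted p = 0.63) and 0.07 ± 0.23 sign-flipped (adjusted p = 0.84). Without array 1 these became -0.08 and -0.24, so the sign of both rested on that array.

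Lpin2, a lipin abundant in liver, averaged -0.24, -0.02, 0.65 and 1.29 on arrays 1 to 4 over its 2 probes, the other 7 genes having 1 probe each. The mean was 0.42 ± 0.13 as given (limma adjusted p = 0.36) and -0.55 ± 0.13 sign-flipped (adjusted p = 0.055), so it passed in neither reading. The probes did not tell the same story. The probe listed under a RefSeq transcript was at -0.73, -0.38, 1.46 and 2.18, and the probe listed under a cDNA clone at 0.25, 0.34, -0.15 and 0.40. With probes fitted one by one, the RefSeq probe was at -1.19 ± 0.15 sign-flipped (limma adjusted p = 0.027) and the cDNA probe at 0.08 ± 0.12 (adjusted p = 0.64). As given they were at 0.63 ± 0.15 and 0.21 ± 0.12, of 1 sign. Their mean gap over the arrays was 1.27, larger than in 96.4% of the 1033 genes with 2 probes, whose median gap was 0.45. The value of Lpin2 as a gene is thus a mean of probes that differ more than most pairs do.

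**Figure D2:**
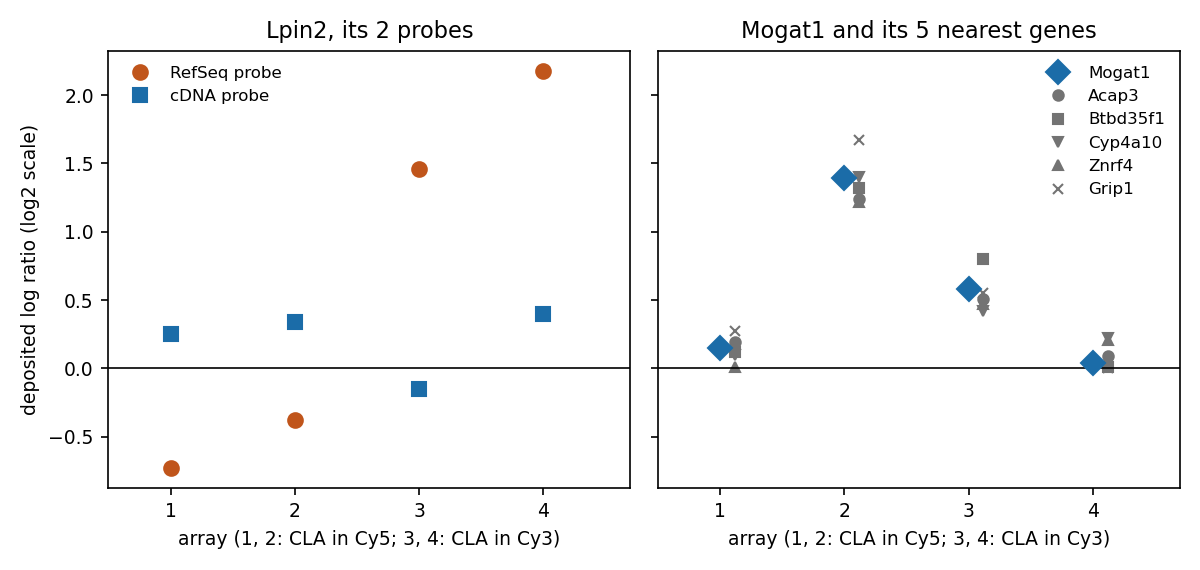
Deposited log ratio (y axis, log2 scale) on arrays 1 to 4 (x axis), 1 point per array. Left, the 2 probes of Lpin2, of which the RefSeq probe goes up to 2.18 on array 4 while the cDNA probe stays between -0.15 and 0.40; right, Mogat1 with the 5 genes nearest to it, all highest on array 2.

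Mogat1, the only gene of the monoacylglycerol route listed, had log2 ratios of 0.15, 1.39, 0.58 and 0.04 on arrays 1 to 4. Array 2 stood far above the others and array 4 was barely above 0. On array 2 only 0.897% of all genes lay above it, against 31.9%, 11.7% and 45.5% on arrays 1, 3 and 4. As given, its mean of 0.54 ± 0.23 (SE, n = 4), or 1.45-fold, was the highest of the 8 genes and did not pass (limma adjusted p = 0.39). Sign-flipped it was at 0.23 ± 0.23 (adjusted p = 0.51). Without array 2 the as-given mean was 0.23 (adjusted p = 0.78) and the sign-flipped one -0.08 (adjusted p = 0.73), so that its size as given and its sign when flipped rested on array 2.

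Set against the mean of the 5 measured genes particular to the glycerol phosphate route, Mogat1 was higher by 0.14, 1.60 and 0.19 log2 units on arrays 1, 2 and 3, with a difference of -0.56 on array 4. The deposited ratios thus put Mogat1 above that mean on 3 of 4 arrays and below it on the fourth. In the sign-flipped reading the differences on arrays 3 and 4 change sign, so that Mogat1 is below that mean on array 3 and above it on array 4. As deposited, Mogat1 lay above each of the 5 genes on array 2 only. On array 1 Lpin1 (0.94) was above Mogat1 (0.15). On array 3 Agpat2 (0.84), Agpat3 (0.74) and Lpin2 (0.65) were above it (0.58). The 5 genes averaged 0.01, -0.21, 0.39 and 0.60 on arrays 1 to 4, and the DGAT genes averaged -0.32, -0.85, 0.75 and 0.90. The difference between routes was chosen with the values known and carries no test.

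Over all 16503 other genes, the 5 whose 4 deposited values lay nearest to those of Mogat1 (Euclidean distance over the 4 arrays, as given) were Acap3, Btbd35f1, Cyp4a10, Znrf4 and Grip1, at distances of 0.18 to 0.31. Cyp4a10, a fatty acid omega-hydroxylase and textbook PPAR-alpha target, was at 0.10, 1.40, 0.42 and 0.22 on arrays 1 to 4. None of the other 7 genes of triglyceride assembly was near: the closest, Agpat3, was at a distance of 1.63, at rank 7355 of 16503. With 4 arrays and this many genes, such likeness is a description only.

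Dgat1 and Dgat2 catalyse the same last step with unrelated proteins, and Dgat2 is the relative of Mogat1. Dgat1 had log2 ratios of -0.26, -0.95, 1.04 and 1.06 on arrays 1 to 4. It was the lowest of the 8 genes on array 2 and the highest on array 3, and array 1 was the mildest of its values. Sign-flipped it fell by 0.83 (SE 0.14, limma adjusted p = 0.032), to 0.564 times the LA level, the largest change of the 8. As given its mean was 0.22 ± 0.14 (adjusted p = 0.48), and without array 1 it was 0.05, without array 2 it was 0.40.

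Dgat2, which is known for using newly made fatty acids, was at -0.39, -0.75, 0.46 and 0.75. Arrays of opposite orientation nearly mirrored each other. The flipped values accordingly lay together, with an SD of 0.19 over the 4 arrays, and gave a fall of 0.59 (SE 0.11, limma adjusted p = 0.036), to 0.666 times the LA level. The as-given values cancelled, with a mean of 0.02 ± 0.11 and adjusted p = 0.95.

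**Figure D3:**
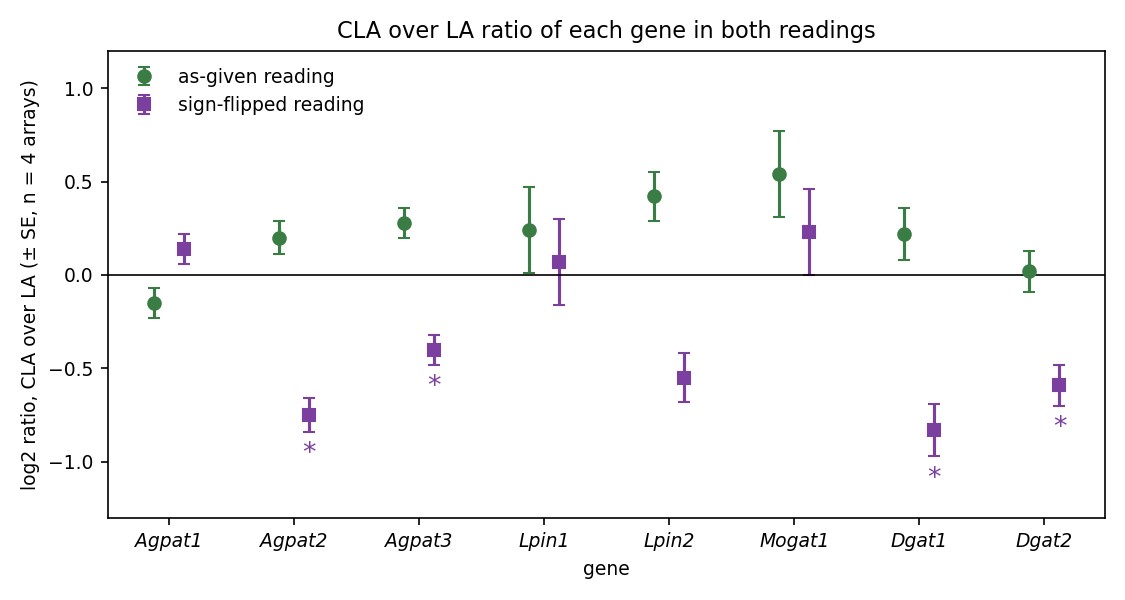
Log2 ratio of CLA over LA (y axis) of the 8 genes (x axis) in the as-given reading (circles) and the sign-flipped reading (squares), with bars of ± 1 SE over 4 arrays and a star where limma's adjusted p is under 0.05. Only Agpat2, Agpat3, Dgat1 and Dgat2 carry a star, all in the sign-flipped reading, and their as-given values lie between 0.02 and 0.28.

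How far these 4 calls rest on single arrays was examined by leaving each array out, which leaves 1 residual degree of freedom and 1 array alone in its orientation. Without array 1, Agpat2 (limma adjusted p just under 0.05) and Dgat1 (0.033) kept their calls, and without array 2 only Agpat2 did, again just under 0.05. Without array 3 or without array 4 none did, and no gene of the whole table passed in the sign-flipped reading of either fit (limma). The sizes kept their sign: Agpat2 ran from -0.80 to -0.69, Agpat3 from -0.43 to -0.37, Dgat1 from -1.0 to -0.65 and Dgat2 from -0.68 to -0.50. Leaving out an array shifts a size only by part of the gap between the arrays of that orientation, so small shifts follow in part from the arithmetic. All 4 calls were also lost when arrays 1 and 3 and arrays 2 and 4 were averaged as if they were dye swaps of shared pools (limma adjusted p between 0.071 and 0.090). With the other possible pairing, arrays 1 and 4 and arrays 2 and 3 averaged, Agpat2 (0.030), Dgat1 (0.036) and Dgat2 (0.037) kept their calls and Agpat3 (0.059) lost its call, with 1950 genes called in all. Which of these pairings holds, if any, is not stated.

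Each dye orientation was also fitted alone, in which a dye effect and a CLA effect cannot be told apart. On arrays 1 and 2, 0 of 8 genes and 0 of all genes passed (limma). On arrays 3 and 4, 4 of 8 passed, namely Agpat2, Agpat3, Lpin2 and Dgat1, with deposited means of 0.95, 0.68, 0.97 and 1.05 and adjusted p between 0.027 and 0.043, among 2541 of all genes. The same 4 genes averaged -0.55, -0.12, -0.13 and -0.60 on arrays 1 and 2. They were picked by their calls on arrays 3 and 4, so the gap between these means follows in part from that choice. Dgat2, Lpin1, Mogat1 and Agpat1, which were not picked, averaged 0.60, 0.17, 0.31 and -0.29 on arrays 3 and 4, against -0.57, 0.31, 0.77 and -0.01 on the other pair.

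**Figure D4:**
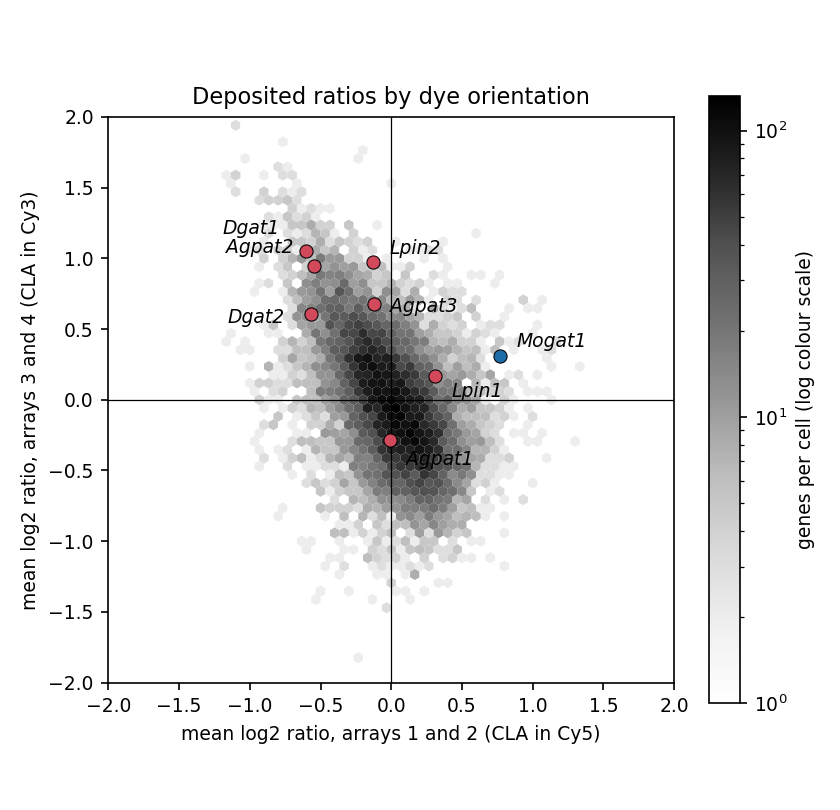
Mean deposited log2 ratio on arrays 1 and 2 (x axis) against that on arrays 3 and 4 (y axis); grey cells count genes on a log colour scale (16397 genes drawn, 107 outside the axes), points are the 8 genes. Agpat2, Agpat3, Lpin2, Dgat1 and Dgat2 lie in the upper left, where the orientations differ in sign, and Mogat1 lies right of the dense cloud at 0.77 and 0.31.

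Facts of the whole table bear on both readings. Over named genes, Pearson r across genes was 0.37 between arrays 1 and 2 and 0.73 between arrays 3 and 4, and between -0.63 and -0.20 for arrays of opposite orientation. Of the features without a gene name, 473 lay over 10-fold from 0 with a sign that followed the dyes, all in the same direction, with medians of -8.67, -7.66, 8.75 and 8.54 on arrays 1 to 4. Which reading holds was not settled. Since the table holds ratios and no levels, the labelled tissue could not be checked by the level of its markers. The 6 measured hepatocyte markers averaged between 0.01 and 0.09 on every array, but single markers ran from -0.41 to 0.53, -0.76 to 0.63, -0.95 to 0.91 and -1.14 to 1.31 on arrays 1 to 4. Of these 6, 1 was called sign-flipped, against 17.1% of all genes. Pancreas acinar markers averaged 1.74 on array 4, where 9 of 9 were above 0, against -0.08 to 0.05 on arrays 1 to 3, and their part in the values of array 4 above was not tested. Adipocyte markers averaged -0.40, 0.17, 0.42 and 0.49 on arrays 1 to 4, with the sign of the DGAT mean on 3 of 4 arrays. Counted one by one, 1, 3, 9 and 8 of 10 were above 0. On array 2 most of them were thus below 0, as the DGAT mean was (-0.85), and the highest was at 1.86. Sign-flipped, 3 of these 10 adipocyte markers were called, with 1 of 6 macrophage and 1 of 8 stellate markers. Bile duct, endothelial and pancreas markers had 0 calls. The part of adipocyte markers in the DGAT values was not tested either. Means on array 4 were 0.45 for macrophage, 0.38 for stellate, 0.55 for bile duct and 0.17 for endothelial markers, against -0.31 to 0.15 on arrays 1 to 3. In such bulk RNA, fewer cells of a type and less RNA per cell cannot be told apart.

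Neighbouring enzymes were described from lists chosen with earlier results of these data known. In the as-given reading no gene of any list passed (limma). At an unadjusted p under 0.05 stood 17 of 89 measured genes as given, against 2235 of all 16504 genes. In the other reading 38 of the 89 did, against 6348 of all genes. Sign-flipped, where 9.72% of all genes were called lower and 7.37% higher, 2 of the 16 measured relatives of the acyltransferases and lipins passed, both lower. Gpat4, a glycerol-3-phosphate acyltransferase of the endoplasmic reticulum that does the same step as Gpam, was at -0.76, -1.44, 1.10 and 1.85 on arrays 1 to 4 and fell by 1.29 (SE 0.18, limma adjusted p = 0.027). Agpat4 fell by 0.38 (adjusted p = 0.049). As given, Gpat4 was at 0.19 ± 0.18 and Agpat4 at 0.24 ± 0.09, both of the opposite sign (adjusted p = 0.64 and 0.36). Lpin3 and Mogat2, the remaining lipin and the intestinal monoacylglycerol acyltransferase, were at -0.20 and 0.12 sign-flipped and did not pass, with adjusted p of 0.26 and 0.44. As given, Lpin3 was at -0.04 and Mogat2 at -0.0044 (adjusted p = 0.90 and 0.99).

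In the sign-flipped reading, supply of glycerol phosphate gave 2 lower calls among 7 measured genes, against 9.72% of all genes. Gpd1, the cytosolic glycerol-3-phosphate dehydrogenase, fell by 0.75 (limma adjusted p = 0.033), and Aqp9, the glycerol channel of hepatocytes, fell by 0.63 (adjusted p = 0.028). As given, Gpd1 was at 0.30 and Aqp9 at 0.25, of the opposite sign (adjusted p = 0.39 and 0.36). Among 23 genes of the branches from phosphatidate and diacylglycerol to phospholipids, 2 were lower and 1 higher in the sign-flipped reading. Over all genes the shares were 9.72% lower and 7.37% higher. Cds2, which makes CDP-diacylglycerol from phosphatidate, fell by 0.60, and Chka, a choline kinase, fell by 0.45, while Ptdss2, a phosphatidylserine synthase, rose by 0.39 (limma adjusted p = 0.027, 0.039 and 0.046). As given, Cds2 was at 0.16 and Ptdss2 at -0.35, of the opposite sign, and Chka was at -0.13, of the same sign (adjusted p = 0.44, 0.35 and 0.50).

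Of 14 measured genes of triglyceride hydrolysis none passed sign-flipped (limma). At an unadjusted p under 0.05 stood 5 of the 14, a share near that of all genes in this reading, 6348 of 16504. The smallest p belonged to Aadac, an arylacetamide deacetylase, at 0.39 ± 0.09, and Ces1g, a carboxylesterase, at -0.61 ± 0.14, both with adjusted p = 0.052. As given, Aadac was at -0.16 and Ces1g at 0.10 (adjusted p = 0.47 and 0.75). In the list of triglyceride export 3 of 6 were lower in the sign-flipped reading, against 9.72% of all genes. Mttp, the microsomal transfer protein that lipidates nascent lipoproteins, fell by 0.48, P4hb, its partner subunit, fell by 0.84, and Apob, their structural protein, fell by 0.68 (limma adjusted p = 0.037, 0.019 and 0.035). As given these 3 were at 0.27 ± 0.09, 0.29 ± 0.08 and 0.56 ± 0.12, of the opposite sign, with adjusted p of 0.35 to 0.36.

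Among 23 regulators, 3 were lower and 1 higher in the sign-flipped reading, together near the share of all genes called, 17.1%. Cebpa, a transcription factor of hepatocytes and adipocytes, fell by 0.96, the xenobiotic receptor genes Nr1i2 and Nr1i3 fell by 0.47 and 0.60, and Prkaa2, a catalytic subunit of the AMP-activated kinase, rose by 0.53 (limma adjusted p = 0.021, 0.032, 0.025 and 0.032). As given, Cebpa was at 0.38, Nr1i3 at 0.25 and Prkaa2 at -0.12, of the opposite sign, and Nr1i2 was at -0.05, of the same sign (adjusted p = 0.35, 0.35, 0.55 and 0.78). Srebf1, which encodes the SREBP-1 activator of lipid synthesis, was at 0.27 ± 0.09 sign-flipped (adjusted p = 0.10) and at -0.31 ± 0.09 as given (adjusted p = 0.35).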

How the data were processed

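RNA of pooled livers was measured on 4 arrays with 2 colours. The authors deposited 1 log ratio per feature and array (22393 features), taken here as log10 from the range of the values, -3.17 to 3.28. Their base, direction and normalization are not stated in the labels, and scanner intensities were not used, so signal over background is unknown. Values were multiplied by 3.32 to give log2. Genes were named from the platform annotation: 18218 features had 1 symbol, 16 several and 4159 none. Features with several or none were left out. Of the named features, 18175 matched RefSeq (GRCm38.p6), used for names only, which changed 0 symbols. Promoter windows came from RefSeq in that build.

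Accessions with at least 8 features were averaged (17782 probes), then the probes of each gene (16504 genes). A linear model per gene (limma 3.58.1 under R 4.3.3, empirical Bayes) held a mean and a dye orientation coefficient, 2 residual and 2.66 prior degrees of freedom, and Benjamini-Hochberg adjustment over all genes at 0.05. The mean is the CLA effect as given, the other coefficient the CLA effect sign-flipped. The fit was tested on simulated data with 200 of 16504 genes changed per reading. At a log2 change of 0.5 it called 0 of them in either reading. At a change of 1 it called 52% as given and 63.5% sign-flipped. The simulation changed far fewer genes than the 2820 called in the sign-flipped reading. There, sizes under 0.5 were called too, such as -0.40 for Agpat3. The simulated shares therefore do not carry over to that reading. Not passing does not show that a gene was unchanged. Named genes were all listed enzymes, each gene of the related lists that passed in either reading (otherwise the 2 with the smallest p), and the 5 genes nearest to Mogat1. Lpin3, Mogat2 and Srebf1 were named after their values were seen. The genes and lists were chosen with earlier results of these data known. For each reading 16 alternatives were tried. Figures used matplotlib 3.10.9.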

Additional observations from a re-analysis of the deposited data

Results flagged for a closer look

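For 4 genes the deposited ratio differed between the arrays with CLA in Cy5 and those with CLA in Cy3 by limma's test of the orientation coefficient. That coefficient, how far the first pair lies from the mean of both pairs, was -0.75 for Agpat2, -0.40 for Agpat3, -0.83 for Dgat1 and -0.59 for Dgat2, with adjusted p between 0.022 and 0.040. It is the same value that the sign-flipped reading gives as the CLA effect. No test here tells a dye effect from a CLA effect in it.

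The 4 flipped values of Dgat1 held 1 that stood apart, array 1, with a gap to the nearest of the others of 0.862 of the whole range, above Dixon's 95% limit for 4 values. Chance flags about 1 in 20 sets, and 16 sets were looked at.

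Outside the named genes, 473 features without a gene name were over 10-fold from 0 with a sign that followed the dye orientation, against 13 of the named features. All 473 were negative on arrays 1 and 2.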

How the results depend on the processing

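In the as-given reading the count of genes called, 0, became 2541 on arrays 3 and 4 alone, with 4 of the 8 enzymes among them, and stayed 0 in the other alternatives. In the sign-flipped reading the count of 2820 became 5380 at a threshold of 0.1, 1202 with no dye term, 125 with arrays 1 and 3 and arrays 2 and 4 averaged, 0 on arrays 1 and 2 alone and 0 to 735 without 1 array. The 4 enzymes called became 0 with arrays 1 and 3 and arrays 2 and 4 averaged, 0 on arrays 1 and 2 alone and 0 to 2 without 1 array. Fewer arrays leave fewer degrees of freedom; beyond that the cause was not tested. As-given signs turned on arrays 1 and 2 alone for Agpat2 (-0.55), Agpat3 (-0.12), Lpin2 (-0.13), Dgat1 (-0.60) and Dgat2 (-0.57). Dgat2 also turned with arrays scaled to one spread (-0.09), with the trend over feature number removed (-0.05), and without single arrays (lowest -0.07, highest 0.11; -0.05 without array 4), as did Lpin1 (-0.08 without array 1, highest 0.55). Sign-flipped signs turned for Agpat1 on arrays 1 and 2 alone (-0.01), Lpin1 on arrays 3 and 4 alone (-0.17), without array 1 (-0.24, highest without an array 0.39) and without array 3 (-0.0031), Mogat1 on arrays 3 and 4 alone (-0.31) and without array 2 (-0.08, highest without an array 0.54), and the cDNA probe of Lpin2 with probes not averaged (0.08). Lpin2 passed with its RefSeq probe (-1.19), with the trend removed (-0.55) and on arrays 3 and 4 alone (-0.97). Of 121 alternative values each, 107 as given and 86 sign-flipped kept direction and side of the threshold. Among the related genes that passed or had the smallest p of their list, 138 of 238 sign-flipped values did and none turned sign. These genes were picked by their p, so that this steadiness follows in part from the choice. Steadiness of direction is also fixed in part by arithmetic, for the enzymes and the related genes alike. With no dye term, with robust variance moderation or with arrays averaged in pairs, each estimate stays as it was, so no sign could turn. As given, no enzyme had a call to lose.

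No paired analysis was possible because replicate numbers come only from the order of the arrays and shared pools cannot be read from the labels. A lone array of an orientation is assumed to vary like the others. The number of arrays and the unknown signal over background limit the precision.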

Other observations

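The following lipid droplet and lipolysis genes were chosen after their values were seen, because they were high on array 2, so that the peak they share with Mogat1 there is fixed by the choice. Cidec, a lipid droplet protein, was at -0.14, 1.86, 0.51 and 0.25 on arrays 1 to 4. Lipe, the hormone-sensitive lipase, was at -0.12, 1.00, 0.21 and 0.05, and G0s2, an inhibitor of the adipose triglyceride lipase, at -0.23, 0.78, 0.40 and -0.13. Of the 10 measured adipocyte markers, the list that holds Cidec and Lipe, 3 were above 0 on array 2. Cidec, Lipe, G0s2 and Mogat1 did not pass in either reading (limma adjusted p between 0.39 and 0.82).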
